A study of Mus musculus with 14 samples.

Results

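The mRNA of 10 chromatin remodeler genes was followed in single cloned mouse embryos. They were a given list of names, with no threshold on level, taken from the 20242 genes with a symbol in the deposited RPKM values: the ATPases Smarca4, Smarca2, Smarca5, Chd1, Chd4, Ino80 and Atrx, and the BAF complex subunits Smarcb1, Smarcc1 and Arid1a. RPKM, reads scaled to transcript length and to the total reads of the library, were summed over the RefSeq entries of a gene. The list matched 14 entries, and every one of the 10 genes was found.

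The embryos were made by somatic cell nuclear transfer (SCNT), in which the nucleus of a B6D2F1 cumulus cell replaces the chromosomes of a B6D2F1 oocyte. All 14 embryos, controls included, were activated with strontium in the presence of cytochalasin B, cultured in medium with deionized BSA and collected singly as two-cell embryos, which the labels place 28 h from nuclear transfer. Trichostatin A (TSA), a histone deacetylase inhibitor, was given at 50 nM for the first 8 h after the start of activation, and vitamin C (VC), a cofactor of Fe(II)-dependent dioxygenases such as histone and DNA demethylases, at 10 µg/ml either over the same hours (early VC) or from 8 to 15 h (late VC). Late VC was given alone to 2 embryos, VC(8-15h), and after TSA to 3, TSA(0-8h)+VC(8-15h). Early VC was given alone to 1 embryo, VC(0-8h), and with TSA to 2, TSA(0-8h)+VC(0-8h), and the rest were 3 TSA(0-8h) and 3 untreated Control embryos. Embryos are written below as group and replicate number, and the 8 embryos that had TSA are set against the 6 that did not where all are used.

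Chromatin remodelers use ATP to slide, eject or exchange nucleosomes. BAF (SWI/SNF) complexes, built around Smarca4 (Brg1) or its paralog Smarca2 (Brm), open chromatin at enhancers and promoters, the ISWI ATPase Smarca5 (Snf2h) spaces nucleosomes, Chd1 works on transcribed genes, Chd4 is the motor of the deacetylase complex NuRD, Ino80 acts on nucleosomes that carry H2A.Z, and Atrx places H3.3 in heterochromatin with Daxx. Maternal Brg1 is required for genome activation in the mouse, and an embryo at this stage holds both mRNA stored by the oocyte and new transcripts, which total RNA sequencing does not separate.

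Between 3021540 and 13589389 reads were counted per embryo, and RNA libraries came from 3 sequencing pools of 5, 6 and 3 embryos. Rank correlations of all genes averaged 0.722 over the 28 pairs of embryos in the same pool and 0.638 over the 63 pairs in different pools. All 6 of the listed oocyte markers were at 1 RPKM or more in at least 7 embryos, as were 4 of the 6 two-cell markers. Zscan4c and Zscan4d reached it in 3 and 4 embryos. The two-cell markers summed to between 4.63 RPKM, in a control embryo, and 470 RPKM, in a VC(8-15h) embryo. The oocyte markers summed to between 97.3 and 1070 RPKM, both in control embryos. The 10 cumulus and granulosa markers summed to at most 1.93 RPKM in any embryo and the 3 blood markers found were at 0. Nothing in the labels says that the embryos of a group came from separate animals, and p-values measure the spread between these embryos. Nuclear transfers were done in separate experiments that the labels do not tie to embryos, so that a difference between experiments cannot be told apart from the spread within a group. A lower RPKM in a whole embryo cannot be told apart from a larger amount of all other RNA.

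Over the 14 embryos Arid1a had the highest median, at 138 RPKM, followed by Smarca5 at 82.8, Atrx at 66.2, Chd1 at 40.0, Smarca4 at 37.4, Chd4 at 32.6, Smarca2 at 32.0 and Smarcc1 at 16.2 RPKM. Ino80 and Smarcb1 were far lower, with medians of 0.961 and 0.159 RPKM. The order was not the same from embryo to embryo. Arid1a was the highest of the 10 genes in 6 embryos, Smarca5 in 3, Atrx in 2, and Smarca4, Chd4 and Smarcb1 in 1 each. The top place of Smarca4, in TSA(0-8h)+VC(0-8h) replicate 2, rests on a short entry, and with its reads over the joint length of its entries, 56.6 RPKM, Smarca5 at 149 RPKM was the highest there, which made 4 embryos for Smarca5 and 0 for Smarca4. No gene stood above its neighbour in the order in more than 10 of the 14 embryos. The ranges of all neighbours overlapped, so that no neighbouring pair in the order was separated beyond its spread.

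**Figure D1:**
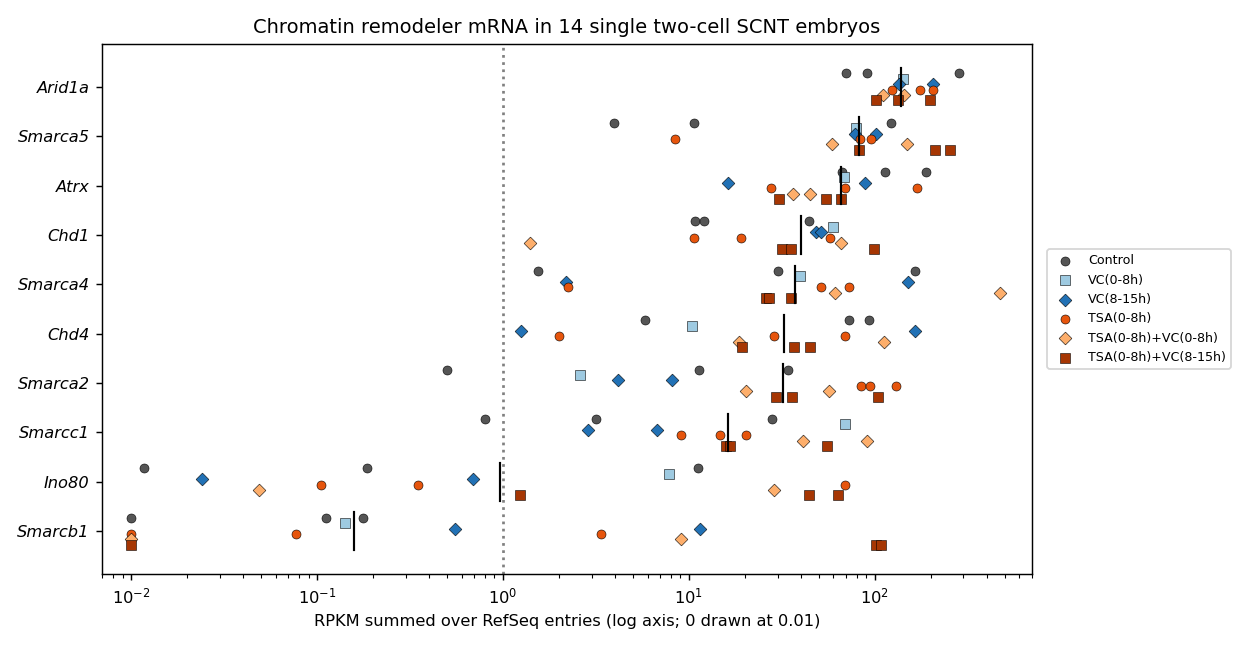
RPKM of each remodeler gene in every embryo, on a log axis, with 1 point per embryo, colours and symbols for the 6 treatments, a bar at the median of the 14 embryos and a dotted line at 1 RPKM; values of 0 are drawn at 0.01. Arid1a points lie together between 70.0 and 285 RPKM, while Ino80 and Smarcb1 points spread from near 0 to 69.0 and 108 RPKM.

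6 of the 10 genes, Arid1a, Smarca5, Atrx, Chd1, Smarca4 and Chd4, were at 1 RPKM or more in every embryo, against 4.17% of all genes and 11.2% of the 7518 genes that reached 1 RPKM in at least 3 embryos. Smarca4 belongs to the 6 by its summed RPKM, and had 0.807 RPKM in Control replicate 1 when its reads were set over the joint length of its entries. Smarca2 and Smarcc1 fell below 1 RPKM only in Control replicate 2, at 0.501 and 0.796 RPKM. That embryo had 6 of the 10 genes at 1 RPKM or more, the fewest of all. TSA(0-8h)+VC(8-15h) replicates 1 and 2 and TSA(0-8h)+VC(0-8h) replicate 2 had all 10, and every other embryo had 8 or 9. The share of all genes at this level was 17.7% in Control replicate 2, and 25.1%, 25.3% and 30.4% in the embryos with all 10. All genes at 1 RPKM or more numbered 3576 in Control replicate 2, and 3105 in VC(8-15h) replicate 2 was the lowest of the 14 embryos.

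Arid1a (chr4:133234923-133312684 in mm9, the build of all gene positions here), the DNA-binding ARID subunit that defines the canonical BAF complex, was the steadiest of the 10 genes. Control embryos had 70.0, 91.4 and 285 RPKM and TSA(0-8h) embryos 176, 205 and 123 RPKM. TSA(0-8h)+VC(8-15h) embryos had 102, 199 and 134 RPKM, TSA(0-8h)+VC(0-8h) embryos 111 and 145, VC(8-15h) embryos 136 and 207, and the VC(0-8h) embryo 141 RPKM. Every group lay inside the range of the control embryos. The standard deviation of log2(RPKM+1) over the 14 embryos was 0.53, and 0.333% of the 7518 genes had a smaller one. Among the 623 genes within 2-fold of its median level, 1.28% did.

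Atrx (chrX:102992954-103124736), the chaperone-linked ATPase of heterochromatin, was the next steadiest, with a standard deviation of 0.97 on the log2 scale and 3.43% of genes below it. Its values were 66.8, 189 and 114 RPKM in control embryos, 27.6, 69.4 and 169 RPKM after TSA alone and 65.7, 30.5 and 54.6 RPKM after TSA and late VC. TSA(0-8h)+VC(0-8h) embryos had 44.7 and 36.4 RPKM, VC(8-15h) embryos 89.0 and 16.2, and the VC(0-8h) embryo 68.2 RPKM. All 3 TSA(0-8h)+VC(8-15h) embryos were below all 3 control embryos, by the small margin of 65.7 against 66.8 RPKM. The median standard deviation was 1.81 over the 10 genes and 2.17 over the 7518.

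**Figure D2:**
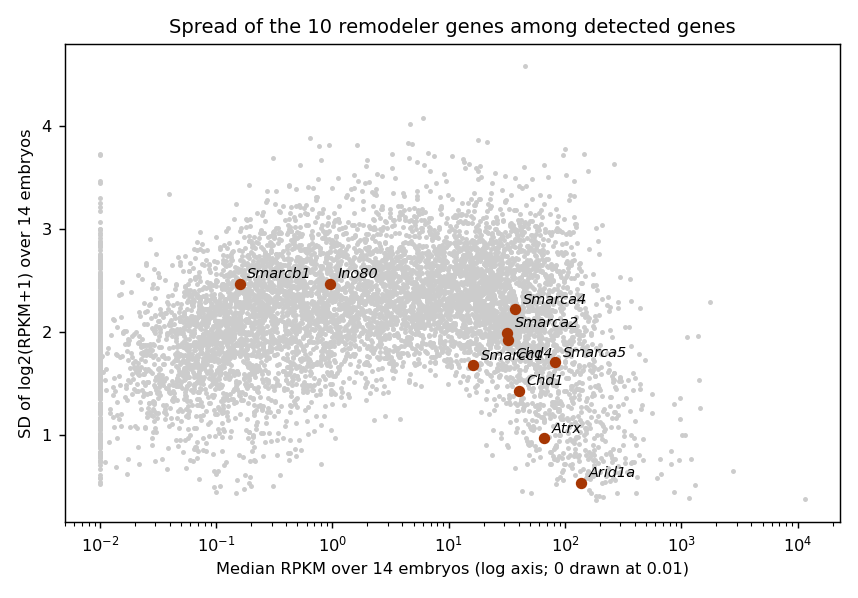
Standard deviation of log2(RPKM+1) over the 14 embryos against the median RPKM (log axis, 0 drawn at 0.01) for the 7518 genes at 1 RPKM or more in at least 3 embryos (grey) and the 10 remodeler genes (brown). Arid1a at 0.53 and Atrx at 0.97 lie at the low edge of the cloud, and Ino80 and Smarcb1 at 2.47 lie in its upper part.

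Smarca2 and Smarca4 are the alternative ATPases of BAF. Smarca2 (chr19:26679650-26852811) was at 11.4, 0.501 and 34.3 RPKM in control embryos, 4.17 and 8.14 in VC(8-15h) embryos and 2.58 RPKM in the VC(0-8h) embryo. With TSA it was at 84.3, 94.6 and 131 RPKM alone, 56.7 and 20.3 RPKM with early VC and 29.6, 104 and 35.8 RPKM with late VC. Thus the 8 embryos with TSA ranged from 20.3 to 131 RPKM and the 6 without from 0.501 to 34.3 RPKM, with an overlap made by Control replicate 3. All of these values came from entry NM_011416, and the other Smarca2 entry was at 0 in every embryo.

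Smarca4 (chr9:21420613-21508674) was at 1.54, 30.3 and 165 RPKM in control embryos, 151 and 2.20 in VC(8-15h) embryos and 39.4 RPKM in the VC(0-8h) embryo. It was at 2.23, 73.0 and 51.6 RPKM after TSA alone, 26.0, 35.4 and 27.0 RPKM with late VC added, and 61.3 and 474 RPKM with early VC added. Every treated group overlapped the range of the control embryos. By summed RPKM the 3 TSA(0-8h)+VC(8-15h) embryos were the closest together. All 3 were below the VC(0-8h) embryo and below both TSA(0-8h)+VC(0-8h) embryos. That order was not tested, and the share of all genes ordered in this way was not taken. The value of 474 RPKM rests on entry NM_011417, whose reads fit a length of only 254 bases and which alone gave 432 RPKM in that embryo. With the reads of both expressed entries set over their joint length the embryo had 56.6 RPKM, VC(8-15h) replicate 1 had 31.0 in place of 151 RPKM, and Control replicate 3 was the highest at 114 RPKM.

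**Figure D3:**
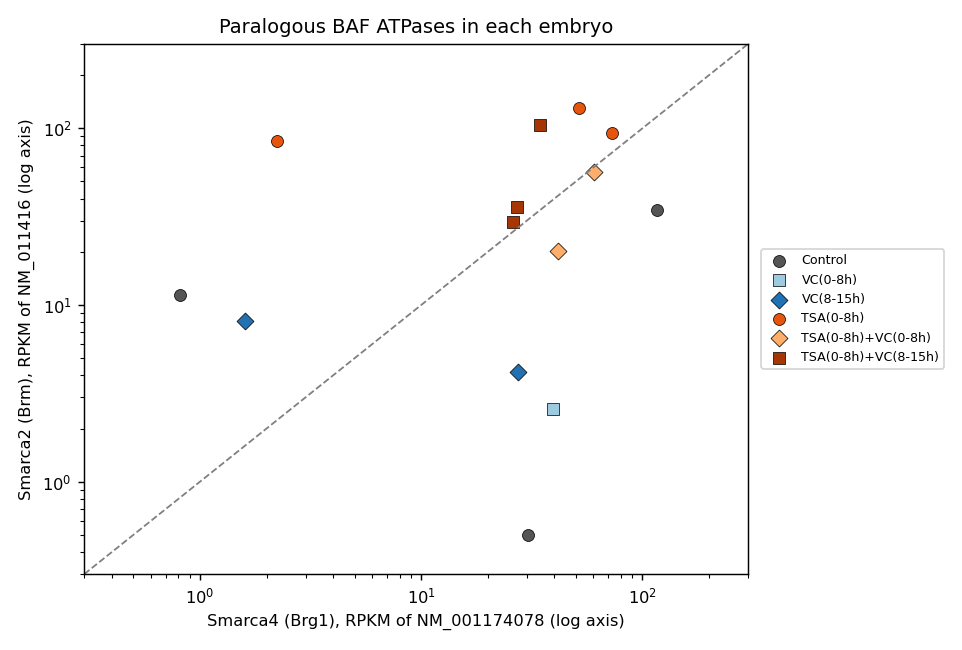
Smarca2 against Smarca4 in each of the 14 embryos, both in RPKM of the longest expressed RefSeq entry on log axes, with colours and symbols for the treatments and a dashed line where they are equal. Of 8 embryos with TSA 6 lie above the line, and of 6 without TSA 2 do.

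Within an embryo Smarca2 (NM_011416) was higher than Smarca4 (NM_001174078) in 6 of the 8 embryos with TSA and in 2 of the 6 without. The log2 ratio of Smarca2 to Smarca4 was 0.94 ± 1.73 (SD, n = 8) with TSA and -1.25 ± 2.90 (SD, n = 6) without, a difference of 2.18 that did not exceed the spread between embryos (two-sided exact permutation test within pools, p = 0.108). Extremes were Control replicate 2, where Smarca4 prevailed at 30.3 against 0.501 RPKM, and TSA(0-8h) replicate 1, where Smarca2 prevailed at 84.3 against 2.23 RPKM.

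Since the paralogs encode alternative motors of one complex, the 250 bases before each start site are shown, from the RefSeq promoter table of GRCm38.p6 and each found once in the mm9 genome, both strands searched. That of Smarca2 is chr19:26679400-26679649 and that of Smarca4 chr9:21420363-21420612, both on the plus strand, with the GC box GGGCGG, read on either strand, in capitals.
Smarca2 promoter: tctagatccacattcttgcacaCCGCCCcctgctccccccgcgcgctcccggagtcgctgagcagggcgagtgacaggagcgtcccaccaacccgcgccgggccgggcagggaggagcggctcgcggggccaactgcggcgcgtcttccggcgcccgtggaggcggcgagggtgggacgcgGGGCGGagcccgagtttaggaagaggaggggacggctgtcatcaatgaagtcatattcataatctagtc
Smarca4 promoter: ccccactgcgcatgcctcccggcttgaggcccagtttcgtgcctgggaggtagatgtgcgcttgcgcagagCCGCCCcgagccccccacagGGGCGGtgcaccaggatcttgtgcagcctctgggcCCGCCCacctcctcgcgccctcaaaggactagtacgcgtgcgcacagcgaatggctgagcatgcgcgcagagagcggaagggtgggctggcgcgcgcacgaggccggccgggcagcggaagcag
The Smarca2 window held 2 GC boxes and 28 CpG dinucleotides and that of Smarca4 3 and 25. The median promoter of 32851 in the table had 6 CpG dinucleotides in the same window, 92.4% had fewer than Smarca2 and 89.3% fewer than Smarca4, and 32.7% held a GC box. These are descriptions of the letters and do not mark a bound site.

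Of the other BAF subunits, Smarcc1 (BAF155; chr9:110034541-110142682), a scaffold of the complex, was at 3.15, 0.796 and 28.2 RPKM in control embryos, 9.04, 20.2 and 14.7 RPKM after TSA alone and 15.8, 16.6 and 55.3 RPKM after TSA and late VC. TSA(0-8h)+VC(0-8h) embryos had 90.7 and 41.0 RPKM, the VC(0-8h) embryo 68.9 RPKM and VC(8-15h) embryos 2.88 and 6.73 RPKM. The 3 embryos with early VC thus ranged from 41.0 to 90.7 RPKM and the other 11 reached at most 55.3 RPKM, without a clear gap.

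Smarcb1 (Snf5; chr10:75359514-75384362), the core subunit that contacts the nucleosome, was all but missing in most embryos and abundant in a pair. TSA(0-8h)+VC(8-15h) replicates 1 and 2 had 102 and 108 RPKM, from 735 and 1392 reads, while replicate 3 of the same group had no read among 12277567. The control embryos had 0.111, 0.176 and 0 RPKM, from 1, 2 and 0 reads. TSA(0-8h) embryos had 3.35, 0.0772 and 0 RPKM, TSA(0-8h)+VC(0-8h) embryos 0 and 9.03, VC(8-15h) embryos 11.5 and 0.551, and the VC(0-8h) embryo 0.142 RPKM. Only the 2 VC(8-15h) embryos were both above all 3 control embryos. Pool 3 held none of the Smarcb1 mRNA in any of its 3 embryos although these were among the most deeply sequenced, and a count of 0 there allowed up to 0.133 RPKM in Control replicate 3, 0.154 in TSA(0-8h) replicate 3 and 0.147 RPKM in TSA(0-8h)+VC(8-15h) replicate 3 (3 reads, for counting error only). The 3.35 RPKM of TSA(0-8h) replicate 1 came in the main from an entry, NM_001161853, seen in no other embryo, at 2.95 RPKM.

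Ino80 (chr2:119198778-119303423), the ATPase of the H2A.Z-directed complex of that name, also ranged widely, with values at all levels in between. It was at 69.0 RPKM in TSA(0-8h) replicate 2 but at 0.105 and 0.351 RPKM in replicates 1 and 3, and at 44.3, 63.5 and 1.23 RPKM in the TSA(0-8h)+VC(8-15h) embryos. TSA(0-8h)+VC(0-8h) embryos had 0.0487 and 28.8 RPKM, control embryos 11.2, 0.185 and 0.0117, VC(8-15h) embryos 0.693 and 0.0242, and the VC(0-8h) embryo 7.83 RPKM. No embryo without TSA exceeded 11.2 RPKM and 4 of the 8 with TSA did, but the lowest values of both sets were below 0.1 RPKM. The lowest value was a single read of 13589389. In all, 7 embryos reached 1 RPKM of Ino80 and 5 reached 1 RPKM of Smarcb1. The standard deviation of log2(RPKM+1) was 2.47 for both. Among the 991 genes within 2-fold of the median level of Ino80, 64.8% had a smaller one. For Smarcb1 the share was 83.5% of 1491 genes.

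Smarca5 (chr8:83222406-83263396), the ISWI motor, was at 82.7, 211 and 255 RPKM in TSA(0-8h)+VC(8-15h) embryos and at 122, 10.7 and 3.98 RPKM in control embryos. TSA(0-8h) embryos had 82.8, 8.47 and 95.2 RPKM, TSA(0-8h)+VC(0-8h) embryos 58.7 and 149, VC(8-15h) embryos 102 and 78.7, and the VC(0-8h) embryo 79.5 RPKM. The 3 embryos at 10.7 RPKM or less had no VC, and all 8 embryos with VC were at 58.7 RPKM or more. Control replicate 1 and 2 of the TSA(0-8h) embryos were as high as the embryos with VC, so that the groups overlapped.

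**Figure D4:**
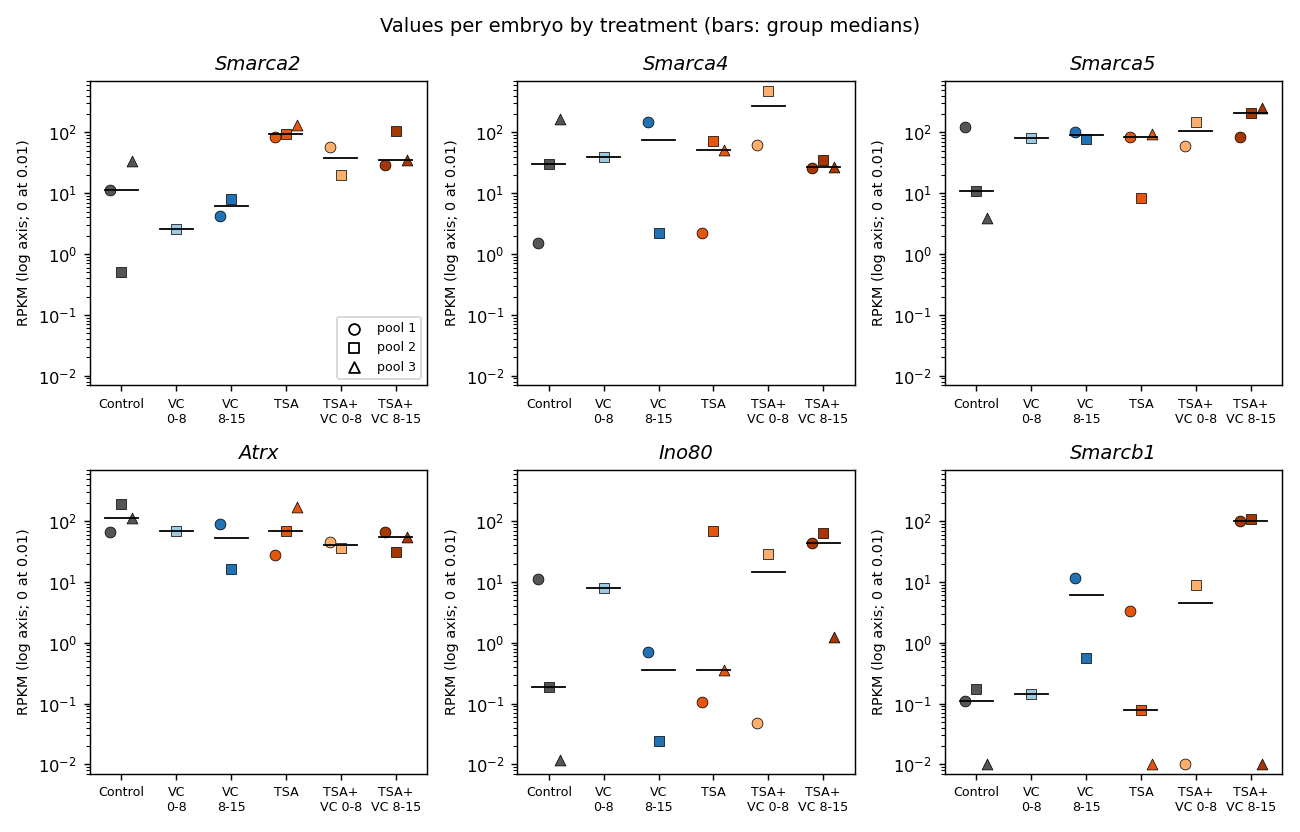
RPKM (log axes, 0 drawn at 0.01) of 6 remodeler genes in every embryo by treatment, with symbols for the sequencing pool and bars at the group medians. Smarca2 points with TSA lie at 20.3 RPKM or above, Smarca5 points lie at 10.7 RPKM or less in 3 embryos without VC, and Ino80 and Smarcb1 points of a group lie far apart.

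Among the CHD ATPases, Chd1 (chr17:15841931-15909574), which keeps chromatin of transcribed genes open, was at 10.8, 12.1 and 44.4 RPKM in control embryos and at 48.6 and 51.7 RPKM in VC(8-15h) embryos. It was at 10.7, 57.2 and 19.1 RPKM after TSA alone, 98.9, 31.6 and 35.5 RPKM with late VC added, 1.39 and 65.7 RPKM with early VC added and 59.8 RPKM in the VC(0-8h) embryo. All 5 embryos with late VC were at 31.6 RPKM or more, a level that 2 of the 6 embryos without VC also passed.

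Chd4 (chr6:125045999-125080609), the NuRD motor, was at 72.7, 5.80 and 92.7 RPKM in control embryos, 165 and 1.26 in VC(8-15h) embryos and 10.4 RPKM in the VC(0-8h) embryo. It was at 69.3, 1.99 and 28.6 RPKM after TSA alone, 19.4, 44.6 and 36.6 RPKM with late VC added and 18.7 and 112 RPKM with early VC added. No treatment stood apart for this gene. In pool 2 it had a median of 8.09 RPKM, against 69.3 in pool 1 and 36.6 in pool 3.

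To ask whether treatment changed these genes, 5 pairs of groups were compared with limma on log2(RPKM+1), over the genes with at least 1 RPKM in every embryo of either group. These comparisons share control or TSA(0-8h) embryos and are not independent of each other. A gene that passes this filter only through the group where it is high was selected towards a difference, so members that passed are not a summary of the list. In none of the 5 was a remodeler gene called at an adjusted p-value under 0.05 (Benjamini-Hochberg), nor was any other gene, so that the share called was 0% in each. limma-voom on the recovered reads called between 128 and 287 genes in these comparisons and none of the 10.

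TSA(0-8h)+VC(8-15h) against control tested 9 of the 10 genes, all but Smarcb1. An unadjusted p-value under 0.05 was found for 1 of the 9, Smarca5, and for 17.7% of the 3297 genes tested. Smarca5 was higher by 3.10 ± 1.31 (SE) on the log2 scale, with an adjusted p = 0.214 by limma, and in 2 of 3 same-pool pairs, and the difference ran from 2.13 without Control replicate 3 to 4.44 without Control replicate 1. limma-voom gave unadjusted p-values under 0.05 for 3 of the 9, namely Smarca5, Atrx and Ino80, of which Ino80 had passed the filter only through the treated embryos. Atrx, lower in TSA(0-8h)+VC(8-15h) by a log2 difference of -1.22 ± 1.04 (limma, adjusted p = 0.584; -2.02 with median-ratio scaling), was the only 1 of the 9 whose groups did not overlap, and 5.7% of all genes tested were lower without overlap (15.7% higher). The median difference of all genes tested depended on the scaling and on 1 embryo: it was 0.78 as reported, 0.10 with median-ratio scaling and -0.02 without Control replicate 2, and at the unadjusted level of 0.05 there were 461 genes above 0 and 124 below, or 317 against 198 with median-ratio scaling.

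TSA(0-8h) against control tested 8 of the 10, without Smarcb1 and Ino80. None had an unadjusted p-value under 0.05 in limma, against 14.9% of 2471 genes, and Smarca2 alone did in limma-voom. Smarca2 had passed the filter only through the TSA(0-8h) embryos, as Control replicate 2 had 0.501 RPKM. Smarca2 was higher without overlap, 84.3 to 131 RPKM against 0.501 to 34.3 RPKM, as were 6.64% of genes (11.6% were lower), and the log2 difference was 3.56 ± 1.84 (SE; limma, adjusted p = 0.382), or 2.29 without Control replicate 2. The median of all genes was -0.40, and -0.01 with median-ratio scaling. The exact permutation test gave p = 0.1, the smallest that 3 embryos against 3 allow.

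With late VC added to TSA, TSA(0-8h)+VC(8-15h) against TSA(0-8h), 9 of the 10 were tested, again without Smarcb1. None had an unadjusted p-value under 0.05 in limma, against 18.3% of 3115 genes, and limma-voom gave it to Atrx alone. None of the 9 was without overlap, against 18.2% of genes higher and 3.47% lower. Ino80 had 44.3, 63.5 and 1.23 RPKM against 0.105, 69.0 and 0.351 RPKM, and Smarca5 had 82.7, 211 and 255 RPKM against 82.8, 8.47 and 95.2 RPKM. With the replicate block, which in these groups is also the sequencing pool, 168 of all genes were called in this comparison and none of the 9.

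VC(8-15h) against control rested on 2 embryos against 3 and tested 8 of the 10. None had an unadjusted p-value under 0.05 in limma or limma-voom, against 13.7% of 3059 genes in limma. Chd1 was higher without overlap, as were 17.1% of genes (10.9% were lower), by 1.41 ± 2.02 (SE, log2; limma, adjusted p = 0.802), or 0.88 with limma-voom. Smarcb1, which did not pass the filter, was also higher without overlap, at 11.5 and 0.551 against at most 0.176 RPKM. When VC(8-15h) replicate 2 was left out, Smarcb1 passed the filter through the lone remaining embryo and was called, with a log2 difference of 3.52 and an adjusted p = 0.000389 in limma, among 1181 of 5965 genes; the lone embryo is there assumed to vary like the controls.

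TSA(0-8h)+VC(0-8h) against TSA(0-8h), also 2 embryos against 3, tested 8 of the 10. None had an unadjusted p-value under 0.05 in limma, against 18.2% of 3661 genes, and limma-voom gave it to Smarca2 and Atrx. Smarca2 was lower without overlap by a log2 difference of -1.55 ± 1.40 (SE; limma, adjusted p = 0.674), where 4.75% of genes were lower in this way. The difference was -3.09 with limma-voom and -0.83 without TSA(0-8h)+VC(0-8h) replicate 2. Smarcc1 was higher without overlap by 2.05 ± 1.83 (SE; limma, adjusted p = 0.666), where 26.6% of genes were higher in this way, and this difference was 0.80 with limma-voom and 0.85 with median-ratio scaling.

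All 14 embryos were then fitted together with terms for TSA, VC window and sequencing pool, over 7518 genes that included all 10. No gene was called for TSA or for late VC in limma, a share of 0%. For TSA an unadjusted p-value under 0.05 was found for Smarca2 alone of the 10, and for 5.07% of all genes. Smarca2 was higher with TSA by 3.11 ± 1.16 (SE, log2), with an adjusted p = 0.964 in limma, and with an adjusted p = 0.647 in limma-voom. limma-voom gave an unadjusted p-value under 0.05 to Smarca2 and Ino80. The other 9 genes had log2 differences in limma between -0.46 for Atrx and 2.13 for Ino80.

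Within each pool every embryo with TSA was above every embryo without it for Smarca2: 29.6 to 84.3 against 4.17 and 11.4 RPKM in pool 1, 20.3 to 104 against 0.501 to 8.14 RPKM in pool 2, and 35.8 and 131 against 34.3 RPKM in pool 3. The margin in pool 3 was small and rested on a single embryo without TSA. Of the 7518 genes, 13 (0.173%) were higher in this way and another 13 lower, and Smarca2 was the only 1 of the 10. The two-sided exact permutation test within pools gave p = 0.00167, the smallest that the 600 arrangements allow, while the other 9 genes had p from 0.0917 for Smarcc1 to 0.848 for Arid1a in the same exact test. The p-value of Smarca2 follows from its separation within pools and is not further support. It is not adjusted over genes, and the 0.173% of all genes separated higher is near it. Leaving out each embryo in turn, other scalings and other filters kept the difference between 2.70 and 3.57 on the log2 scale, with an adjusted p of at least 0.647 in each.

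For late VC none of the 10 had an unadjusted p-value under 0.05 in limma, against 7.09% of genes, and Smarca5 and Smarcb1 did in limma-voom. Smarca5 ranged from 78.7 to 255 RPKM in the 5 embryos with late VC and from 3.98 to 122 RPKM in the 6 without VC, and Smarcb1 from 0 to 108 and from 0 to 3.35 RPKM. The interaction of TSA and late VC, fitted over the 11 embryos without early VC, was called for 0 of 6551 genes and had an unadjusted p-value under 0.05 for 294 of them and for none of the 10 in limma.

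**Figure D5:**
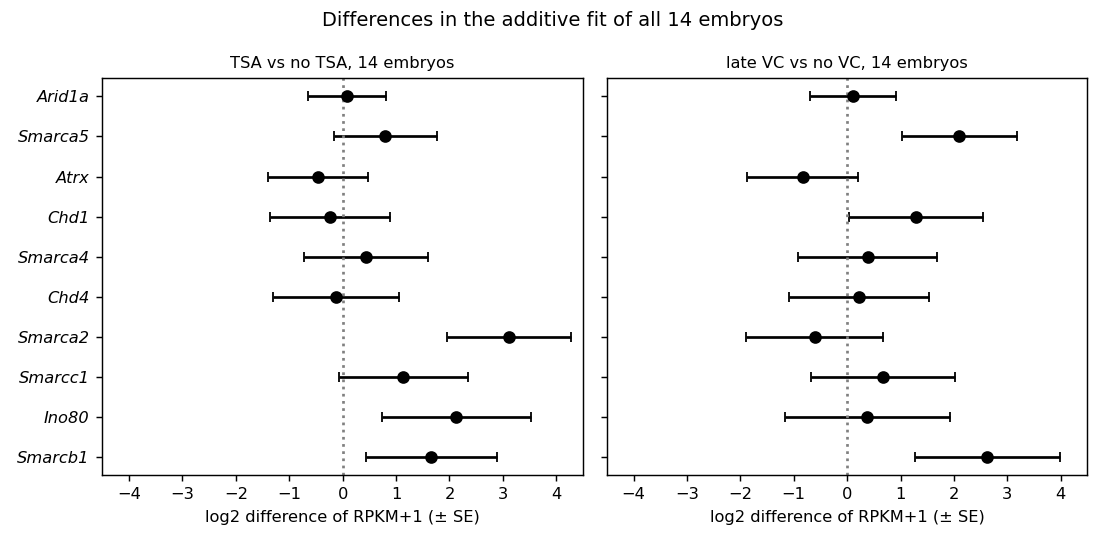
Log2 differences of RPKM+1 with their standard errors (limma, 14 embryos, terms for TSA, VC window and pool) for TSA against no TSA (left) and late VC against no VC (right) in the 10 genes, ordered by median level. Only Smarca2 for TSA lies more than 2 standard errors from 0, at 3.11 ± 1.16.

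Other genes of the same complexes, a list of 79 of which 77 were found, gave no call in any of the 7 limma comparisons either. Those with an unadjusted p-value under 0.01 are named, at most 3 per complex. Of these Smarcc2, Mbd3, Dpf1, Dpf3, Pbrm1, Chd3, Ss18, Vps72, Btaf1 and Shprh passed the filter only through the group where they were high, and so were selected towards a difference. In TSA(0-8h)+VC(8-15h) against control, where 7.67% of genes had it, these were the BAF scaffold Smarcc2, with a mean of 51.9 against 0.216 RPKM, and the NuRD subunits Mta2, with 273 against 23.5 RPKM, and Mbd3, with 51.3 against 0.138 RPKM, each with an adjusted p = 0.111 by limma. Smarcc2 is the partner of Smarcc1, which at 15.8, 16.6 and 55.3 RPKM against 3.15, 0.796 and 28.2 overlapped. In TSA(0-8h) against control it was Ruvbl1 alone, an AAA+ ATPase of the INO80 complex, with 390 against 32.2 RPKM in groups that overlapped, and 6.27% of genes had it.

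With late VC added to TSA the genes at this unadjusted level were Dpf3, with a mean of 57.0 against 0.174 RPKM, Pbrm1, the PBAF bromodomain subunit, with 15.8 against 0.120 RPKM, Btaf1 and Shprh. With early VC added the genes were Dpf1, Pbrm1 with 28.5 against 0.120 RPKM, Dpf3, Chd3 with 26.1 against 0.00586 RPKM, Vps72 and Btaf1, and Ss18 was also at this level, with 25.1 against 0.576 RPKM. The share of all genes at this level was 8.83% and 10.1%, respectively. The direction of all genes depended on the scaling: with late VC added the median difference was 1.21 as reported and 0.06 with median-ratio scaling, with 501 higher and 68 lower genes at an unadjusted p-value under 0.05 against 290 and 218, and with early VC added it was 1.37 and 0.36, with 622 and 44 against 450 and 108. No gene of these lists had an unadjusted p-value under 0.01 for VC(8-15h) against control, nor for TSA or late VC in the fits of all 14 embryos, where 4.58%, 0.904% and 1.56% of genes did in limma.

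The 10 genes were also compared with each other. Spearman correlations of RPKM over the 14 embryos, which share pools and treatments, ran from -0.38 to 0.52 over the 45 pairs, with a median of 0.05, and were highest for Smarca5 with Chd4. The genes most like Arid1a were Cstf2t, Tcl1b1 and Zbtb17, with rho from 0.80 to 0.82. Those most like Smarca5 were Uba3, Mau2 and Mdn1, with rho from 0.80 to 0.83, and those most like Atrx were Mtus1, Mdm4 and Rab7, with rho from 0.82 to 0.87. These are the highest of 2784 candidates at 1 RPKM or more in at least 10 embryos and a description only.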

How the data were processed

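RNA was purified from each of the 14 SCNT embryos at the two-cell stage, 2 of the 9 µl of RNA was amplified with the Ovation Single Cell system, and libraries were sequenced as single-end reads. The authors removed low-quality reads and bases and adaptors (cutadapt), mapped the reads to mm9 with TopHat, TopHat2 in the submitters' processing notes, and counted them on UCSC exons. The deposited RPKM values are these counts normalized by the authors to total counts and transcript length. The authors' own tests, with edgeR on counts, were not used. Groups and replicate numbers were read from the sample titles, and pools of libraries from the identifiers of the libraries.

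Of 25650 entries, 25250 were given a gene symbol through a RefSeq table, and RPKM was summed over the entries of each of 20242 genes. Reads were recovered from the steps of the RPKM values: all 14532 entries above 0 in at least 2 embryos gave whole reads within 0.001, and these held at least 99.8% of the reads of each embryo. A transcript of 1 kb with 3 reads was worth 0.221 to 0.993 RPKM. Such floors cover counting error only, as amplified reads are not independent molecules.

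Groups were compared with limma 3.58.1 in R 4.3.3 (lmFit, eBayes with a trend) on log2(RPKM+1), a scale that understates the change of low genes, for genes with at least 1 RPKM in every embryo of either group, and with terms for TSA, VC window and pool over all 14 embryos for genes at 1 RPKM in at least 3. P-values were adjusted over all genes tested (Benjamini-Hochberg), with 0.05 as the threshold. The fits were tested on simulated data. For limma-voom on the recovered reads, weights were capped at their 99 percentile after a first fit was seen to rest on a few extreme weights. Single values were compared by two-sided exact permutation tests, within pools where all embryos were used. Alternatives were another pseudocount, other filters, median-ratio and quantile scaling, the replicate block, one fit of all embryos, no trend, single entries and leaving out each embryo. The interaction, the Smarca4 level over its joint length and the ratio of the paralogs were added after the data were seen. Other steps ran in Python 3.11.15 with scipy 1.17.1, pandas 2.3.3, numpy 2.4.6 and matplotlib 3.10.9.

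The 10 genes, the other lists and the tests were chosen with earlier results of these data known. The 10 genes are always described. A fold change is printed where a gene was called, had an unadjusted p-value under 0.05 or had groups that did not overlap. Other complex genes are named at an unadjusted p-value under 0.01, at most 3 per complex and comparison. Protein sequences were not analysed here.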

Additional observations from a re-analysis of the deposited data

How the results depend on the processing

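None of the 10 genes was called in any comparison under any alternative, with a single exception: Smarcb1 in VC(8-15h) against control when VC(8-15h) replicate 2 was left out, so that the number of the 10 called ranged from 0 to 1 there and was 0 in the other leave-one-out fits of the pairwise comparisons. Of the 7 differences printed with an error, for Smarca5, Atrx, Smarca2, Chd1 and Smarcc1, none changed direction. The number of all genes called, 0 in every comparison as reported, did depend on the processing. In 5 pairwise comparisons, ordered as TSA and late VC against control, TSA against control, late VC added to TSA, late VC against control and early VC added to TSA, it was 107, 99, 176, 45 and 328 with a pseudocount of 0.1 RPKM, and 287, 141, 210, 128 and 202 with limma-voom on recovered reads. With a single fit of all 14 embryos it was 1, 4, 0, 25 and 69, and with each RefSeq entry on its own 1, 3, 0, 0 and 143. A filter on any 3 embryos gave 5 genes for TSA against control, 1 for late VC against control and 2 for early VC added to TSA. Quantile normalization gave 2 for TSA against control and 1 for late VC added to TSA, where median-ratio scaling gave 3.

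Same-numbered embryos of the control, TSA alone and TSA with late VC groups shared a sequencing pool, and the pairwise fits as reported have no term for it. Deviations from group means of their 9 same-numbered pairs correlated at 0.034 on average (0.00896 to 0.0576), weakly but all above 0. The average of -0.017 for other pairs is largely fixed by taking each group from its own mean, and is no separate comparison. With the replicate block the same comparisons gave 7, 5, 168, 1 and 3 genes, and none of the 10. Leaving out each embryo in turn gave from 0 to 75 genes (without Control replicate 2), 0 to 274 (the same), 0 to 295 (201, 295 and 288 without TSA(0-8h)+VC(8-15h) replicates 1, 2 and 3), 0 to 1181 (365 and 1181 without VC(8-15h) replicates 1 and 2) and 0 to 1694 (1694 and 1019 without TSA(0-8h)+VC(0-8h) replicates 1 and 2). In the last 2 cases a lone embryo is left, whose spread is taken from the other group. For TSA in all 14 embryos it was 2 with single entries, 2 with limma-voom and 0 to 2 when an embryo was left out. For late VC it was 3 with single entries, 1 with a pseudocount of 0.1 RPKM, 1 with no replicate block (without the pool) and 0 to 1 when an embryo was left out. The causes of these changes were not tested. Control replicate 2 had 10 of the 10 genes at 0.1 RPKM or more, against 6 at 1 RPKM.

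Groups held 1 to 3 embryos, and the median standard deviation of a gene over the 14 embryos was 2.17 on the log2 scale. Log2 differences above 3 for Smarca5 and Smarca2 did not pass the threshold, and a p-value that misses it does not show that levels were equal. Only 2 of 9 µl of RNA entered each library, and counting error does not cover the amplification, which had no molecular identifiers.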

Other observations

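The direction of the difference with TSA was not the same in each sequencing pool for several of the 10 genes. Chd4, the NuRD motor, was lower with TSA in pool 1, at 18.7 to 69.3 against 72.7 and 165 RPKM, and in pool 3, at 28.6 and 36.6 against 92.7 RPKM, while in pool 2 it was at 1.99 to 112 RPKM with TSA and 1.26 to 10.4 RPKM without. Ino80 did not overlap in pool 2, with 28.8 to 69.0 RPKM in the 3 embryos with TSA and 0.0242 to 7.83 RPKM in the 3 without, but overlapped in pool 1 at 0.0487 to 44.3 against 0.693 and 11.2 RPKM. Smarca5 was lower with TSA in pool 1, at 58.7 to 82.8 against 102 and 122 RPKM, and higher in pool 3, at 95.2 and 255 against 3.98 RPKM. These differences between pools were not tested, and the pools hold different sets of treatments. The share of all genes separated within a single pool was not taken. With at most 3 embryos on a side, such separations can arise without any difference between the treatments.

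Among the partner genes, Hells, a SNF2-family ATPase that acts with DNA methylation, was at 1 RPKM or more in all 14 embryos, from 4.49 to 375 RPKM with a median of 52.4. Daxx, the partner of Atrx, reached 1 RPKM in 6 of the 14 embryos and had a median of 0.228 RPKM, against 66.2 RPKM for Atrx. Both were named after their values were seen.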
